A study of Mus musculus with 6 samples.

Results

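A list of 10 genes that mark or build dendritic cells was followed in bone marrow from mice transplanted with cells carrying mutant ASXL1 and from mock-transplanted mice. It held 5 genes of plasmacytoid dendritic cells (Siglech, Tcf4, Spib, Ly6d and Runx2) and 5 of conventional dendritic cells (Batf3, Id2, Zbtb46, Clec9a and Cd209a). Members were the probe sets to which the platform annotation gave exactly 1 gene symbol, that symbol being in the list. The rule found 18 of 45037 probe sets and 8 of 18193 genes, 4 plasmacytoid and 4 conventional genes with 9 probe sets each. Runx2 and Clec9a were not analysed here.

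The comparison was of 3 arrays from ASXL1-MT-transplanted mice, labelled as myeloid marrow cells of mice with a disease like myelodysplastic syndrome, with 3 arrays from mock-transplanted mice, labelled as normal controls. ASXL1 is a chromatin regulator that is recurrently mutated in that syndrome, a clonal disorder of blood formation. The series text describes the cells of both groups as marrow depleted with antibodies to CD3e, B220 and TER-119, while the sample label states the depletion for mock alone. The labels give no age, sex, strain or vector, do not say which cells or sequence the mock mice received, and do not say whether replicates came from separate mice, so the spread that the p-values rest on is that of the 6 samples and may be technical.

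Dendritic cells take up antigen and present it to T cells. Plasmacytoid dendritic cells are the blood system's main producers of type I interferon and depend on the E protein TCF4, a DNA-binding factor that recognises short motifs called E-boxes. Conventional dendritic cells need ID2, which binds E proteins and keeps them off DNA, and its balance with TCF4 is part of how the lineages separate. Mouse plasmacytoid dendritic cells carry B220 on their surface, one of the antigens targeted by the depletion. The series text describes that depletion for both groups and the label for mock alone. If only mock was depleted, group and depletion cannot be told apart in these data. In bulk marrow, more cells of a type and more RNA per cell cannot be told apart.

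E-boxes have the letters CANNTG, where N is any base, and a match on either strand is a match on both. The upstream sequences of the 6 measured members with a window in the promoter table used are shown because E proteins bind this motif and ID2 keeps them off it. Each covers 220 bases, from 250 to 31 bases before the start that RefSeq annotates (build GRCm38.p6), 5′ to 3′ on the gene's strand, with every E-box in capitals. The Siglech window is chr7:55767934-55768153 on the plus strand, the Spib window chr7:44532102-44532321 on the minus strand, the Batf3 window chr1:191098164-191098383 on the plus strand, the Id2 window chr12:25096123-25096342 on the minus strand, the Zbtb46 window chr2:181424419-181424638 on the minus strand and the Cd209a window chr8:3749015-3749234 on the minus strand.
Siglech: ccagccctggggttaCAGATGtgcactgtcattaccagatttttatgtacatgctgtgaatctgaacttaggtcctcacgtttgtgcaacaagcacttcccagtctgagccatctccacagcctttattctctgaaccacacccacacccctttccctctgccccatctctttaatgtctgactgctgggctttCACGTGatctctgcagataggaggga
Spib: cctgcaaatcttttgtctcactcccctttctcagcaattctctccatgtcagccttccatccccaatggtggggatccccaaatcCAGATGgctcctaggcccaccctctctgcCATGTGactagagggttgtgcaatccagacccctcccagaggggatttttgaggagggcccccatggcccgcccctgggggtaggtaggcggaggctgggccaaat
Batf3: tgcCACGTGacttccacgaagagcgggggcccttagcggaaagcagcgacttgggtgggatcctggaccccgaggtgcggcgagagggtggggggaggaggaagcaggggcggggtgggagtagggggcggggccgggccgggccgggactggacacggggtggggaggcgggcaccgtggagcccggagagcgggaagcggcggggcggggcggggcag
Id2: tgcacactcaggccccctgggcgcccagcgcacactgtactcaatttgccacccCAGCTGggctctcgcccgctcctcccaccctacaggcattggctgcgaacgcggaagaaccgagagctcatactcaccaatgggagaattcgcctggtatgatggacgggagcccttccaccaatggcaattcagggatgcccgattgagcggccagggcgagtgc
Zbtb46: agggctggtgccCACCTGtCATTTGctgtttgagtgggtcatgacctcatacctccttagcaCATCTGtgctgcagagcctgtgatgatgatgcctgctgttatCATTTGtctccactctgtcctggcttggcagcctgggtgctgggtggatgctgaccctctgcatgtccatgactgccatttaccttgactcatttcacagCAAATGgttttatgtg
Cd209a: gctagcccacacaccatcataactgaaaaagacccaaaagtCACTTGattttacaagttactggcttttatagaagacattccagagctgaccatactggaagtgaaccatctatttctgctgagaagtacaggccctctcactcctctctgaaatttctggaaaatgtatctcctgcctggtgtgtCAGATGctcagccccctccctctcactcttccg
Zbtb46 had 5 E-boxes, Siglech, Spib and Cd209a had 2 each, and Batf3 and Id2 had 1 each. Of 32851 such windows in the RefSeq table, 62.1% held at least 1 E-box and 27.4% at least 2. The form CACCTG or its reverse complement CAGGTG, which E proteins bind well, was in 15.5% of all windows and, of the 6 shown, in that of Zbtb46. A match is a description of these letters and shows no binding.

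All values are log values with the median of each probe set over the 6 arrays set to 0, taken as log2. A positive value is brighter than that probe set's median array. A gene's value is the mean of its probe sets, and "change" below means the mean of the ASXL1-MT arrays less that of the mock arrays, on the log2 scale. Centring removed the absolute levels, so no level can be set beside that of another gene, and whether markers of the labelled myeloid cells are present or absent cannot be read from these values. Where the groups do not overlap, centring also makes the 2 values of a probe set that face each other across the gap, 1 from each group, equal in size and opposite in sign. Array medians ran from 0.02 to 0.05 in ASXL1-MT and from -0.05 to -0.03 in mock, and no array correlated with another as a copy would. The number of arrays limits the precision.

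In ASXL1-MT marrow, 3 of the 4 measured plasmacytoid genes rose, Siglech 11.9-fold, Ly6d 8.0-fold and Tcf4 3.14-fold, and Spib did not pass. Of the 4 measured conventional genes, Batf3 rose 3.89-fold and Id2 1.70-fold, and Zbtb46 and Cd209a did not pass. No member fell. The calls came from limma's moderated test over all 18193 genes, with Benjamini-Hochberg adjustment at 0.05, which called 11.4% of all genes, 6.63% higher and 4.75% lower. All 8 genes had 3 ASXL1-MT values above the 3 mock values, as did 23.5% of all genes, while 37.9% did not overlap in either direction. The exact permutation test over the 6 arrays gave p = 0.1 (two-sided) for each of the 8, the smallest value that 3 arrays against 3 allow, so only the fit across all genes could pass the threshold.

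**Figure D1:**
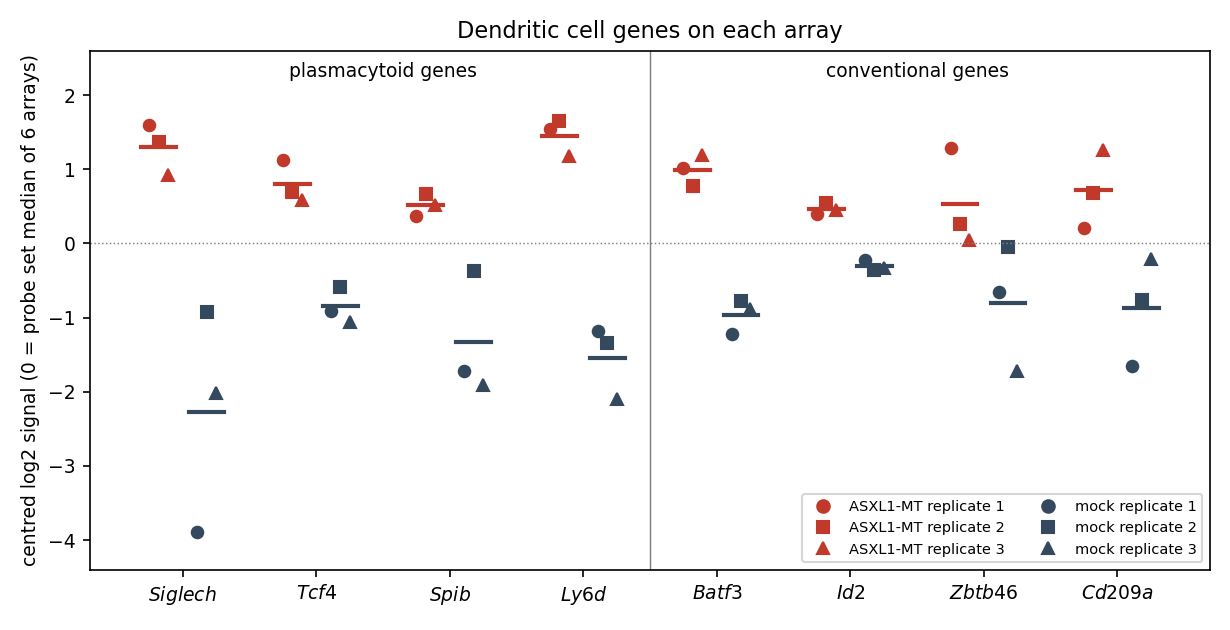
Centred log2 signal (vertical axis, 0 being the median of each probe set over 6 arrays) of the 8 measured genes, with ASXL1-MT arrays left of mock arrays, 1 point per array and a line at each group mean. In all 8 genes the 3 ASXL1-MT points lie above the 3 mock points, with the widest mock spread in Siglech (-3.89 to -0.92) and the narrowest in Id2 (-0.36 to -0.22).

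Siglech encodes a sialic acid-binding receptor that signals through the adaptor DAP12 and is the usual surface marker of mouse plasmacytoid dendritic cells. It was 1.60, 1.36 and 0.92 on the ASXL1-MT arrays, against -3.89, -0.92 and -2.02 on the mock arrays. The ASXL1-MT arrays were close together, while mock replicate 1 was far below the other two mock arrays. The means were 1.30 ± 0.35 in ASXL1-MT and -2.28 ± 1.50 in mock (SD, n = 3 each). The change was 3.58 (SE 0.78, 95% confidence interval 1.62 to 5.53, adjusted p = 0.0457 by limma), the 49th highest of 18193 genes. In the fit over all probe sets its single probe set, 1436131_at, missed the threshold (adjusted p = 0.0559 by limma), and its signal was not called bright, the term used below for probe sets read as having a signal of at least 256. Of the 6 fits that each drop an array, the gene passed in 1, without mock replicate 1, where the change was 2.77 (adjusted p = 0.0483 by limma). The change was 3.42, 3.54 and 3.76 without ASXL1-MT replicates 1, 2 and 3, and 4.25 and 3.70 without mock replicates 2 and 3, none of which passed.

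Tcf4, also called E2-2, encodes the E protein that plasmacytoid dendritic cells require for their development and identity. The gene was 1.12, 0.70 and 0.59 on the ASXL1-MT arrays, against -0.90, -0.58 and -1.06 on the mock arrays. Both groups were tight, with means of 0.80 ± 0.28 in ASXL1-MT and -0.85 ± 0.24 in mock (SD, n = 3 each). The change was 1.65 (SE 0.22, 95% confidence interval 1.10 to 2.20, adjusted p = 0.0161 by limma). Tcf4 had 6 probe sets, the most of any member, and all 6 passed in the fit over probe sets, with changes from 1.19 to 2.26 and adjusted p from 0.0167 to 0.0444 by limma. Of these, 1416725_at, the only one not called bright, missed the threshold under each of the 3 other scalings (adjusted p = 0.0513 to 0.0559 by limma). Their profiles over the 6 arrays had pairwise Pearson correlations from 0.931 to 0.996, and they share the arrays and the transcript. The gene passed without ASXL1-MT replicate 1 (change 1.49) and without mock replicate 2 (1.78). It did not pass without ASXL1-MT replicate 2 (1.70) or 3 (1.76), or without mock replicate 1 (1.62) or 3 (1.55), with adjusted p no higher than 0.0614 by limma.

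Ly6d encodes a small GPI-anchored surface protein that marks lymphoid progenitors with B cell and plasmacytoid dendritic cell potential. It was 1.54, 1.65 and 1.18 on the ASXL1-MT arrays, against -1.18, -1.35 and -2.10 on the mock arrays. No mock value came near the ASXL1-MT values, and the means were 1.46 ± 0.24 in ASXL1-MT and -1.54 ± 0.49 in mock (SD, n = 3 each). The change was 3.00 (SE 0.30, 95% confidence interval 2.26 to 3.74, adjusted p = 0.0106 by limma), the 100th highest of all genes. Ly6d was the only member whose gene call was kept whichever of the 6 arrays was left out, with changes from 2.72 to 3.18.

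Spib encodes an ETS family transcription factor of plasmacytoid dendritic cells and B cells. It was 0.37, 0.66 and 0.52 on the ASXL1-MT arrays, against -1.72, -0.37 and -1.90 on the mock arrays. As with Siglech, the ASXL1-MT arrays were close together and mock replicate 2 was the highest mock array. The means were 0.52 ± 0.15 in ASXL1-MT and -1.33 ± 0.84 in mock (SD, n = 3 each). The change was 1.85 (SE 0.44, 95% confidence interval 0.74 to 2.95) and did not pass (adjusted p = 0.0557 by limma). Of the 6 fits that each drop an array, Spib passed in 1. That was without mock replicate 2, with a change of 2.33 (adjusted p = 0.0316 by limma). The change was 1.92, 1.78 and 1.85 without ASXL1-MT replicates 1, 2 and 3. It was 1.65 and 1.56 without mock replicates 1 and 3, and none of these passed (adjusted p = 0.118 to 0.157 by limma). With each gene read from its probe set of smallest spread, the change of 1.85 had an adjusted p of 0.0403 by limma. That fit called more genes in all. Its probe sets were chosen by their spread on these same arrays, so it supports no call.

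Batf3 encodes an AP-1 family factor required for the conventional dendritic cells that cross-present antigen. It was 1.01, 0.78 and 1.19 on the ASXL1-MT arrays, against -1.22, -0.78 and -0.89 on the mock arrays. The groups were separate and about equally tight, with means of 1.00 ± 0.21 in ASXL1-MT and -0.96 ± 0.23 in mock (SD, n = 3 each). The change was 1.96 (SE 0.19, 95% confidence interval 1.47 to 2.45, adjusted p = 0.0106 by limma). It kept its call in 5 of the 6 fits that drop an array and lost it without ASXL1-MT replicate 3, where the change was 1.86 (adjusted p = 0.0538 by limma).

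Id2 was 0.39, 0.55 and 0.45 on the ASXL1-MT arrays, against -0.22, -0.36 and -0.33 on the mock arrays. It had the smallest change of the measured members and the smallest spread in both groups, with means of 0.46 ± 0.08 in ASXL1-MT and -0.30 ± 0.07 in mock (SD, n = 3 each). That spread is of the mean of its 3 probe sets, whose pairwise Pearson correlations over the 6 arrays ran from 0.396 to 0.842. On the ASXL1-MT arrays 1422537_a_at was 0.24, 0.05 and 0.59 and 1453596_at was 0.65, 1.28 and 0.25. These 2 probe sets ran in opposite order there, which narrows the spread of the gene's mean. The gene's change was 0.77 (SE 0.13, 95% confidence interval 0.44 to 1.09, adjusted p = 0.0253 by limma). Of its 3 probe sets only 1435176_a_at passed (change 0.78, adjusted p = 0.0443 by limma), and it missed the threshold under each of the 3 other scalings (adjusted p = 0.0558 to 0.062 by limma), which left no Id2 probe set called. The values for 1453596_at were a change of 1.05 (adjusted p = 0.0965 by limma) and for 1422537_a_at a change of 0.47 (adjusted p = 0.234 by limma). The gene's call was lost whichever of the 6 arrays was left out, and the change was 0.80, 0.73 and 0.77 without ASXL1-MT replicates 1, 2 and 3 and 0.81, 0.74 and 0.75 without mock replicates 1, 2 and 3.

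Zbtb46 encodes a zinc finger factor of conventional dendritic cells and their committed precursors. The gene was 1.29, 0.27 and 0.04 on the ASXL1-MT arrays, against -0.66, -0.04 and -1.72 on the mock arrays. ASXL1-MT replicate 3 and mock replicate 2 almost touched. The means were 0.53 ± 0.67 in ASXL1-MT and -0.81 ± 0.85 in mock (SD, n = 3 each). The change was 1.34 (SE 0.55, 95% confidence interval -0.04 to 2.73) and did not pass (adjusted p = 0.18 by limma). Its 4 probe sets disagreed, with pairwise correlations from -0.382 to 0.897 over the 6 arrays. Probe set 1454884_at was 0.52, 1.28 and 1.55 on the ASXL1-MT arrays, against -1.69, -1.56 and -0.52 on the mock arrays, and it rose (change 2.38, adjusted p = 0.0389 by limma). It was the only bright probe set of the gene. At the other end, 1453856_at was 2.01, -2.80 and -0.69 on the ASXL1-MT arrays, against 1.51, 0.69 and -3.03 on the mock arrays, with groups fully mixed and a change of -0.22 (adjusted p = 0.954 by limma).

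Cd209a encodes a C-type lectin related to DC-SIGN, found on conventional dendritic cells and on dendritic cells that derive from monocytes. It was 0.20, 0.68 and 1.27 on the ASXL1-MT arrays, against -1.65, -0.76 and -0.20 on the mock arrays. The values of each group were spread widely and nearly met. The means were 0.72 ± 0.53 in ASXL1-MT and -0.87 ± 0.73 in mock (SD, n = 3 each). The change was 1.59 (SE 0.46, 95% confidence interval 0.42 to 2.76) and did not pass (adjusted p = 0.0891 by limma).

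Among probe sets, 7 of 9 plasmacytoid and 3 of 9 conventional ones rose and 0 fell, where the fit over all 45037 probe sets called 8.1% in all, 4.73% higher and 3.37% lower. The 6 Tcf4 probe sets make up most of the plasmacytoid count, so these are not independent genes. A positive change was seen in 17 of 18, and the groups did not overlap in 16 of 18, against 35.4% of all probe sets. Signals were called bright for 13 of the 18, against 38.2% of all probe sets. Brightness is read from the 3 highest arrays, the ASXL1-MT ones where these groups were separate, so that count is not independent of the changes.

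**Figure D2:**
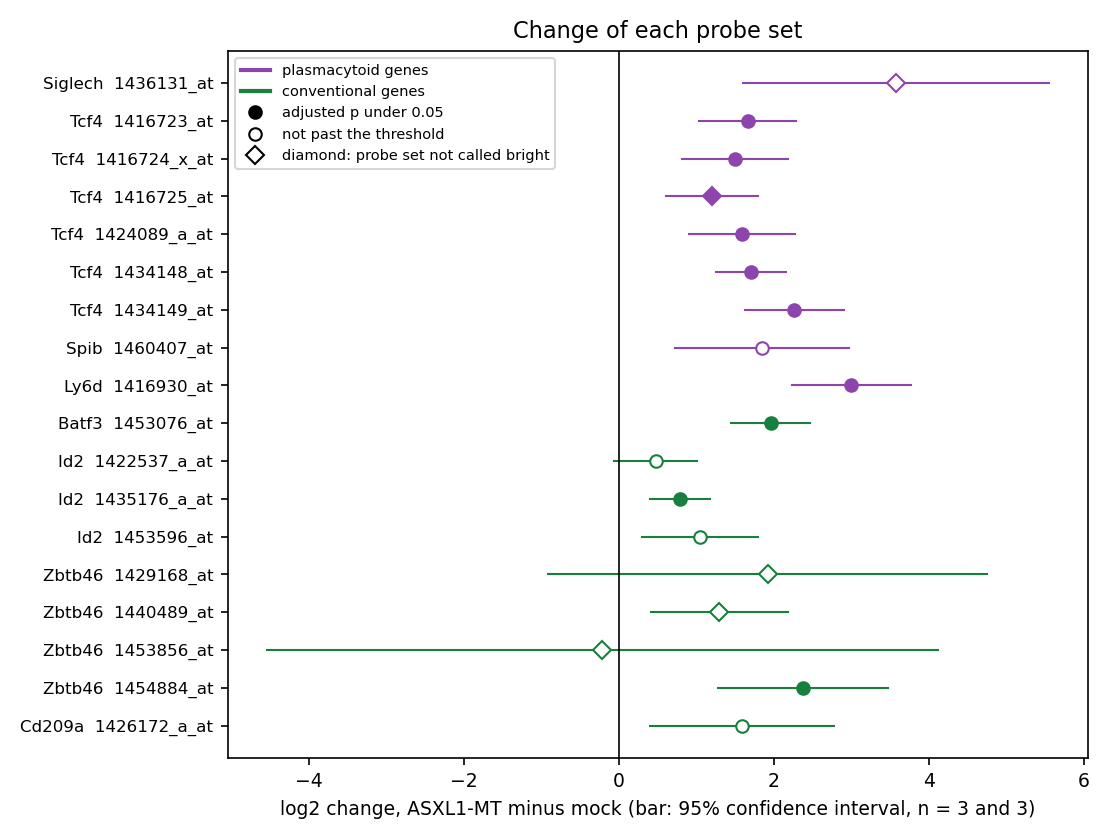
Log2 change (ASXL1-MT minus mock, horizontal axis) of the 18 probe sets with 95% confidence intervals, filled where the adjusted p was under 0.05 and drawn as diamonds where the signal was not called bright. The 6 Tcf4 probe sets lie between 1.19 and 2.26, while the 4 Zbtb46 probe sets run from -0.22 to 2.38.

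Set side by side, the measured plasmacytoid genes had a median change of 2.42 and the conventional ones 1.47, or 2.32 and 1.36 once the median over all genes, 0.11, is taken off. The ranges overlapped, at 1.65 to 3.58 for plasmacytoid and 0.77 to 1.96 for conventional genes. The mean of the plasmacytoid genes was 1.16, 1.09 and 0.80 on the ASXL1-MT arrays, against -1.93, -0.80 and -1.77 on the mock arrays. The mean of the conventional genes was 0.73, 0.57 and 0.74 on the ASXL1-MT arrays, against -0.94, -0.49 and -0.79 on the mock arrays. In both sets mock replicate 2 was the mock array closest to ASXL1-MT. The difference between the median changes was 0.96, and it was 0.08 on bright probe sets alone, where Siglech drops out and Zbtb46 rests on 1 probe set. A probe set is bright through its 3 highest arrays, which for members with separate groups are the ASXL1-MT arrays, so that value is not independent of the changes. No test was made of the difference between the sets.

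**Figure D3:**
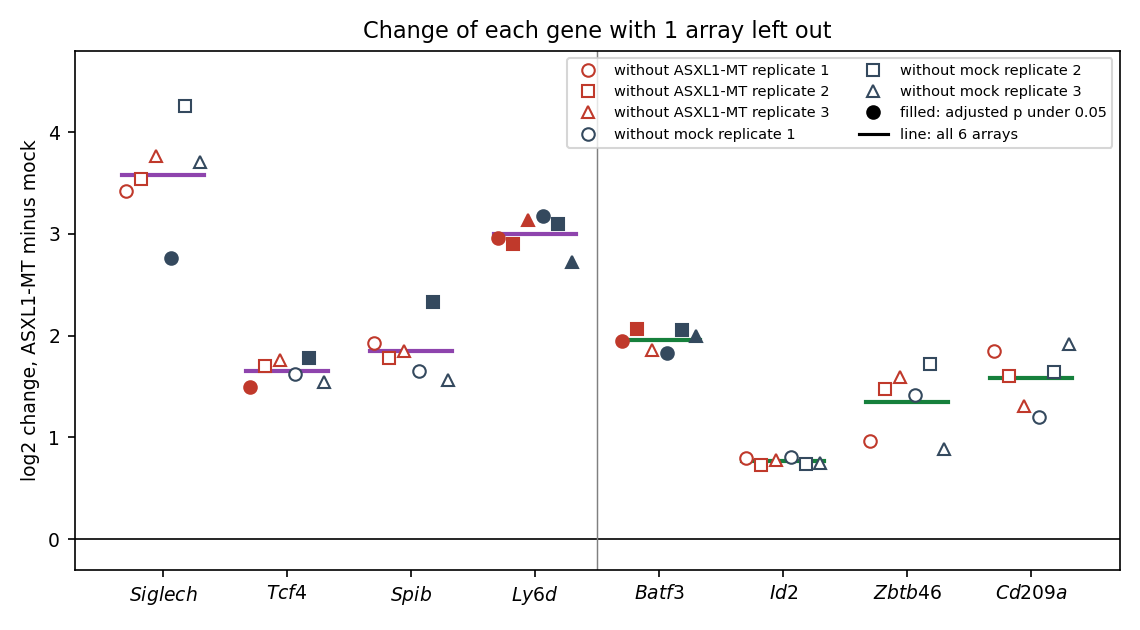
Log2 change (ASXL1-MT minus mock, vertical axis) of each measured gene with 1 array left out, 6 points per gene, beside a line at the value from all 6 arrays. Points are filled where the adjusted p was under 0.05. Every point lies above 0, Ly6d has 6 filled points, Batf3 5, Tcf4 2, Siglech and Spib 1 each, and Id2, Zbtb46 and Cd209a none.

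Other genes of plasmacytoid dendritic cells were taken from a list of 17, of which 16 were measured. Of these 6 rose and 1 fell, or 43.8% against 11.4% of all genes. The median change was 0.98, or 0.87 relative to all genes. Klk1, a kallikrein protease, was 1.14, 1.59 and 0.85 on the ASXL1-MT arrays, against -0.89, -2.98 and -2.30 on the mock arrays (change 3.25, adjusted p = 0.0279 by limma). Ccr9, a chemokine receptor of gut homing that plasmacytoid cells carry, was 1.67, 1.70 and 0.57 on the ASXL1-MT arrays, against -0.78, -0.55 and -1.85 on the mock arrays (change 2.37, adjusted p = 0.0389 by limma). Mef2c, a transcription factor of lymphoid and myeloid progenitors, was 0.96, 0.66 and 0.88 on the ASXL1-MT arrays, against -0.78, -0.64 and -0.95 on the mock arrays (change 1.62, adjusted p = 0.0105 by limma). In each of these 3 genes the groups were separate. Bst2, Bcl11a and Pacsin1 also rose, and Lair1, an inhibitory collagen receptor shared with other myeloid cells, was the 1 that fell (change -0.85, adjusted p = 0.0335 by limma). The genes through which plasmacytoid cells sense nucleic acids and induce interferon did not pass. Their changes were -1.03 for Tlr7, 0.79 for Tlr9 and -0.07 for Irf7. Tlr9 had no probe set called bright, and its change ran from -0.58 to 1.52 with 1 array left out. Tlr7 passed as lower under 2 of the 3 other scalings, with adjusted p = 0.0472 after quantile normalization and 0.0457 after cyclic loess by limma. These 3 were singled out after their values were seen.

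Of 19 other genes of conventional dendritic cells, all measured, 3 rose and 2 fell, or 26.3% against 11.4% of all genes. The median change was 0.13, or 0.02 relative to all genes. Tlr3, a sensor of double-stranded RNA in cross-presenting dendritic cells, was 1.75, 2.15 and 2.15 on the ASXL1-MT arrays, against -3.60, -4.06 and -1.87 on the mock arrays (change 5.20, adjusted p = 0.0133 by limma). Btla, an inhibitory receptor of lymphocytes and dendritic cells, was 0.82, 0.74 and 0.82 on the ASXL1-MT arrays, against -0.74, -1.15 and -1.10 on the mock arrays (change 1.79, adjusted p = 0.00985 by limma). Nfil3, a transcription factor needed for cross-presenting dendritic cells, fell, at -0.36, -1.38 and -1.58 on the ASXL1-MT arrays, against 0.44, 0.36 and 0.67 on the mock arrays (change -1.59, adjusted p = 0.0494 by limma). Snx22 rose and Clec4a2 fell. Xcr1, the chemokine receptor that defines the cross-presenting subset, had a change of 2.27 with overlapping groups (adjusted p = 0.243 by limma), and Itgax, which encodes CD11c, had a change of 0.10 (adjusted p = 0.839 by limma). No probe set of Xcr1 was called bright. Xcr1 and Itgax were singled out after their values were seen.

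**Figure D4:**
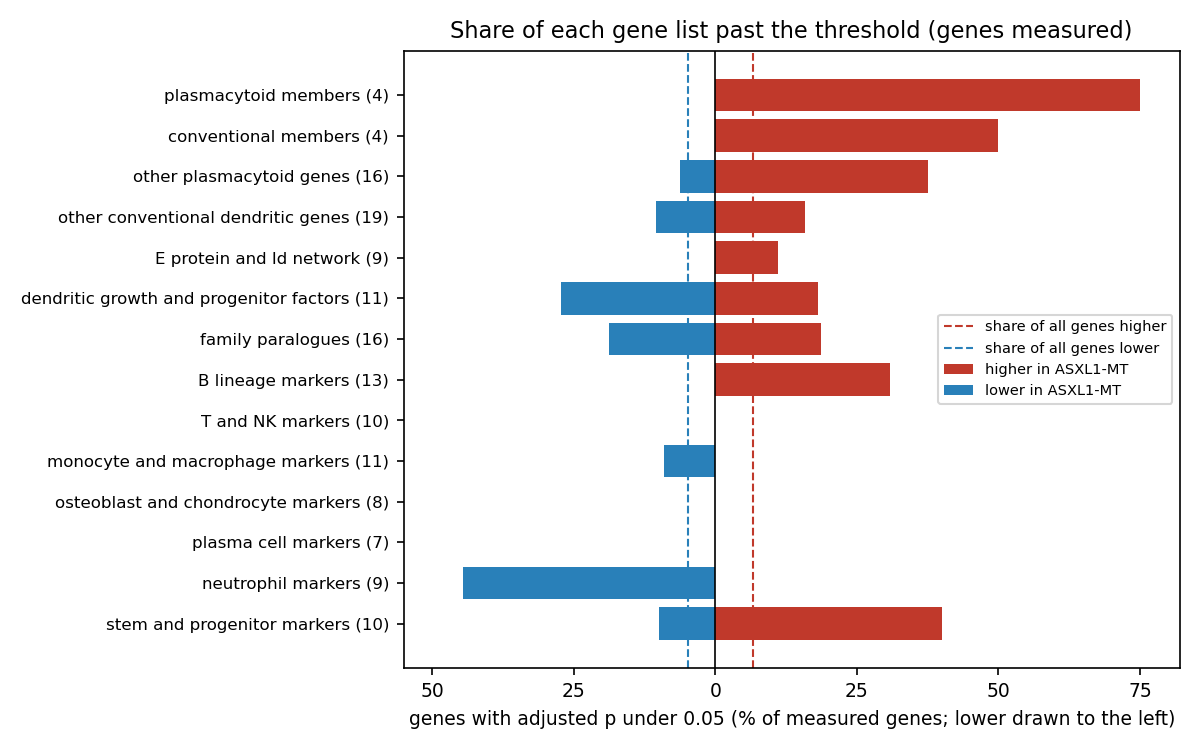
Share of the measured genes of each list (horizontal axis, %) with an adjusted p under 0.05, higher in ASXL1-MT to the right and lower to the left, with dashed lines at the shares of all genes, 6.63% higher and 4.75% lower. The number of measured genes stands beside each list, and small lists move in large steps.

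TCF4 works with other E proteins and against Id proteins. Of 9 genes in that network besides the members, 1 rose and 0 fell, with a median change of 0.39. That is 11.1% of the list, near the 11.4% called among all genes. The riser was Cbfa2t3, a corepressor that binds E proteins, at 0.41, 0.58 and 0.84 on the ASXL1-MT arrays, against -1.22, -0.43 and -0.83 on the mock arrays (change 1.44, adjusted p = 0.0277 by limma). Tcf3, the founding E protein gene, had a change of 0.80 (adjusted p = 0.0904 by limma). Id3, an inhibitor of E proteins like Id2, was -0.999, -5.03 and -6.12 on the ASXL1-MT arrays, against 1.40, 1.83 and 0.999 on the mock arrays. The groups were separate, with ASXL1-MT replicate 1 far above the other two ASXL1-MT arrays, and the change of -5.46 did not pass (SE 1.36, adjusted p = 0.0625 by limma). Tcf3 and Id3 were singled out after their values were seen.

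Of 11 measured growth and progenitor factors of the dendritic lineage, 2 rose and 3 fell, or 45.5% against 11.4% of all genes. The median change was -0.44. Flt3, the receptor whose ligand drives dendritic cell formation, was 1.65, 1.39 and 1.64 on the ASXL1-MT arrays, against -2.57, -1.39 and -1.85 on the mock arrays (change 3.50, adjusted p = 0.0100 by limma). Irf8, a transcription factor that both dendritic lineages use, was 0.83, 0.77 and 0.73 on the ASXL1-MT arrays, against -1.12, -0.67 and -0.88 on the mock arrays (change 1.67, adjusted p = 0.0106 by limma). Csf2rb, the common beta chain of receptors that include that for GM-CSF, fell, at -0.52, -0.40 and -0.62 on the ASXL1-MT arrays, against 0.68, 0.40 and 0.69 on the mock arrays (change -1.10, adjusted p = 0.0181 by limma). Spi1, which encodes PU.1, and Bcl6 were the other two that fell.

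Spib, Tcf4 and Ly6d are also expressed in the B lineage, and markers of other cells were counted beside the members. Of 13 measured B lineage markers, 4 rose and 0 fell. The share that rose was 30.8%, against 6.63% of all genes. These markers had a median change of -0.13. Their mean was -0.16, 0.09 and 0.02 on the ASXL1-MT arrays, against -0.40, 0.65 and -0.21 on the mock arrays, so the groups overlapped. The 4 were Fcrla, Cd22, Blk and Cd79b, with changes of 1.79, 1.78, 1.28 and 0.96. No probe set of Fcrla, Cd22 or Blk was called bright, while that of Cd79b was. The defining genes Ebf1 (change -0.65) and Pax5 (-0.13) did not pass. Neither did the surrogate light chain genes Vpreb1 (-0.47) and Igll1 (-0.09) or Cd79a (-0.65). All of these were singled out after their values were seen. Ebf1 had 1 of 5 probe sets called bright and Pax5, Vpreb1, Igll1 and Cd79a had none. Among the markers not called, only Rag2 had a positive change (1.41). The part of B lineage cells in the members' changes was not tested.

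Of 10 measured stem and progenitor markers, 4 rose and 1 fell, or 50% against 11.4% of all genes. The rises were led by Hoxa9 (change 3.46, adjusted p = 0.0105 by limma) and Mecom (change 2.63, adjusted p = 0.0272 by limma). Cd34 (1.44) and Sox4 (1.24) rose too, and Meis1 fell (change -1.95, adjusted p = 0.0469 by limma). The rest of the list, Erg (1.28), Kit (0.20), Myb (0.15), Gata2 (0.04) and Hlf (-3.18), did not pass. No probe set of Hoxa9, Meis1 or Hlf was called bright. The mean of the stem and progenitor markers was 0.18, -0.10 and 0.24 on the ASXL1-MT arrays, against -0.53, -0.20 and -0.54 on the mock arrays. Of 9 measured neutrophil markers, 0 rose and 4 fell, or 44.4% against 4.75% of all genes called lower. The falls were led by Mmp9 (change -1.87, adjusted p = 0.0124 by limma) and Cxcr2 (change -1.65, adjusted p = 0.0202 by limma). Mmp8 (change -1.22, adjusted p = 0.0180 by limma) and Elane (change -1.06) fell too. The rest of the list, Ltf (-0.45), S100a8 (-0.18), Mpo (-0.18), Camp (-0.17) and S100a9 (0.0003), did not pass. The mean of the neutrophil markers was -0.50, -0.29 and -0.39 on the ASXL1-MT arrays, against 0.22, 0.43 and 0.44 on the mock arrays. In both lists the groups were separate, the stem and progenitor mean being higher in ASXL1-MT, like the members, and the neutrophil mean lower. Their part in the members' changes was not tested.

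Of 11 measured monocyte and macrophage markers, 1 fell, Fcgr1 (change -1.02, adjusted p = 0.0294 by limma), and 0 rose. That is 9.09% of the list, near the 11.4% called among all genes. Cd14 had the largest change, -3.64, with separate groups, and did not pass (adjusted p = 0.0567 by limma). C1qa went the other way, with a change of 2.30 and overlapping groups (adjusted p = 0.405 by limma). Cd14 and C1qa were singled out after their values were seen. No marker passed among 10 of T and NK cells, 8 of osteoblasts and chondrocytes and 7 of plasma cells in limma's test, although Prdm1 passed as lower under all 3 other scalings (adjusted p = 0.038 to 0.0464 by limma). Before adjustment, at p under 0.05, these lists held 1 higher and 1 lower, 1 higher and 1 lower, and 0 higher and 3 lower. Of all genes, 29.1% had an unadjusted p under 0.05 by limma. The smallest p in these lists belonged to Cd3d (change -2.82) and Il7r (1.60), to Ibsp (1.12) and Col1a1 (-1.48), and to Prdm1 (-1.30) and Mzb1 (-1.74). The T and NK mean was 0.13, 0.07 and -0.43 on the ASXL1-MT arrays, against -2.07, 0.97 and 0.60 on the mock arrays. Mock replicate 1, the lowest array for Siglech, was also the lowest in this list. The plasma cell mean was -0.06, -0.75 and -0.54 on the ASXL1-MT arrays, against 0.39, 0.54 and 0.12 on the mock arrays, and its part in the members' changes was not tested either.

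Over the pathway and marker lists, 38 genes passed, where the fit called 11.4% of all genes. The share by list ran from 0% to 50%, the highest being that of the stem and progenitor markers. With an array left out, 1 of the 38 passed in all 6 fits, 26 in some and 11 in none, and 35 passed under all 3 other scalings. The fits with an array left out called 192 to 1033 genes in all, in place of 2072. Bst2, Pacsin1 and Nfil3 missed the threshold under 1 scaling each. Of the genes not called, 3 passed under some scaling, Tlr7, Prdm1 and Mgl2, all as lower. None of the 38 changed sign in these fits. Among the 38, Pacsin1, Snx22, Cd209d, Cd209e, Clec1b, Cd22, Blk, Fcrla, Meis1 and Hoxa9 had no probe set called bright, so dim signals limit their fold sizes. Ccr9, with 1 of 5 probe sets bright, and Meis1 were among the 11 that passed in no fit with an array left out.

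The genes with the profile most like the plasmacytoid mean over the 6 arrays were Pdk1 (Pearson r = 0.999), a kinase that restrains pyruvate dehydrogenase, Sqle (r = 0.997), an enzyme of sterol synthesis, and Mccc1 (r = 0.997), an enzyme of leucine breakdown. Those most like the conventional mean were Adcy7 (r = 0.999), an adenylyl cyclase, Itga4 (r = 0.998), an integrin chain, and Flt3 (r = 0.998). Such likeness was common over 6 arrays: 661 other genes had r above 0.95 with the plasmacytoid mean and 926 with the conventional mean, of 18185.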

How the data were processed

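The deposited table held 6 columns of log values, 1 per array, which are taken as log2. MAS5 is the tool that the submitters' processing notes name. The log base and the centring of each probe set on its median (0 to within 5e-07) are not stated and were read from the values. Float rounding was used to call 17205 probe sets bright, when the 3 highest arrays lay on the step of log values of 8 and above. Of the probe sets, 34945 had 1 symbol, 932 several and 9160 none here, and 34741 matched a RefSeq gene ID.

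Groups and replicate numbers came from the titles. Gene means and probe sets entered a linear model with limma 3.58.1 (lmFit, eBayes; R 4.3.3) with group as the only term, after tests on simulated data. P-values were two-sided, adjusted by Benjamini-Hochberg. The members and lists were chosen with earlier results of these data known. All members were named, with, from each list, the 3 genes of largest change past the threshold or the 2 of smallest p. The 3 genes most like each set were named too. Alternatives were 3 scalings, trend with robust settings, the probe set of smallest spread, bright probe sets alone, a replicate block, each array left out and an exact permutation test.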

Additional observations from a re-analysis of the deposited data

How the results depend on the processing

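Quantile normalization, cyclic loess, equal array medians and trend with robust settings each gave 3 plasmacytoid and 2 conventional calls. Member probe sets called were 8 under each of the 3 scalings, in place of 10. The 3 scalings brought the median change of all genes to 0.02, 0.0065 and 0.03, against 0.11 as deposited. With the probe set of smallest spread, 3898 genes passed in place of 2072, and all 4 plasmacytoid members. Of these 4, Siglech, Spib and Ly6d have 1 probe set each, so for them only the fit around them changed. The probe sets were chosen by their spread on these same arrays, so these counts support no call. On bright probe sets alone 4128 of 9421 genes passed, all 4 conventional genes among them, and the median change of plasmacytoid minus conventional genes was 0.076 in place of 0.96. Brightness is set by the 3 highest arrays, the ASXL1-MT ones for members with separate groups, so these values support no call. With 1 array left out, plasmacytoid calls ran from 1 to 3, conventional calls from 0 to 1, member probe sets from 0 to 4, all genes from 192 to 1033 and the difference of medians from 0.74 to 1.04. The count of 0 conventional calls came without ASXL1-MT replicate 3 (2 at an unadjusted p under 0.05 by limma, against 22.8% of all genes). The counts of 0 probe sets came without ASXL1-MT replicates 2 and 3 (15 and 14 of 18 unadjusted, against 20.8% and 20.2% of all probe sets). The change of 1453856_at ran from -1.59 to 0.94 and turned positive in 3 fits: 0.94 when ASXL1-MT replicate 2 was dropped, 0.68 when mock replicate 1 was and 0.27 when mock replicate 2 was. It was called in none of them. The labels do not say whether the replicate numbers pair the samples. Deviations of same-numbered arrays correlated at -0.01 in each pair, so no array-wide deviation was shared. That cannot show whether the samples were matched. With the replicate number as a block, limma called 0 plasmacytoid genes, 0 conventional genes, 0 member probe sets and 0 genes in all, with 4, 4, 15 and 4568 at an unadjusted p under 0.05, or 25.1% of all genes and 21.9% of all probe sets. Dim signals limit Siglech, 1 of 6 Tcf4 and 3 of 4 Zbtb46 probe sets, and fold sizes hold only if the log base is 2.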

Other observations

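Relatives of the members did not move as 1 group. Of 16 measured paralogues and neighbours, 3 rose and 3 fell, or 37.5% against 11.4% of all genes. The median change was -0.28. In the CD209 family of C-type lectins, Cd209e was 1.68, 3.18 and 4.03 on the ASXL1-MT arrays, against -1.68, -2.58 and -2.75 on the mock arrays (change 5.29, adjusted p = 0.0150 by limma). Cd209d was 2.04, 1.85 and 2.45 on the ASXL1-MT arrays, against -1.85, -2.34 and -1.92 on the mock arrays (change 4.15, adjusted p = 0.00508 by limma), and its call was kept whichever of the 6 arrays was left out. Neither was called bright, and probe sets of so close a family may share signal. Cd209b (change 1.57) and Cd209c (-0.05) did not pass and were singled out after their values were seen. Clec1b, a platelet lectin receptor, fell (change -1.87, adjusted p = 0.0128 by limma), as did the lectin genes Siglecf (-1.46) and Clec7a (-1.34). Ly6e rose (0.99), and the Runx2 relatives Runx1 (0.47) and Runx3 (-0.52), singled out in the same way, did not pass.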
